A study of Mus musculus with 12 samples.

Results

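The cells described here are the T cells that the study's authors annotated as Cd44- Cd4+ T in tumours grown from 4T1, a mammary carcinoma line of the mouse. They were chosen by that annotation alone, in the libraries of leukocytes pulled down by beads that bind CD45, the pan-leukocyte surface antigen. The annotation names 3354 cells, out of 54955 cells in these libraries and 115612 cells in the whole series. After likely doublets (droplets holding more than 1 cell) were left out, 3351 cells remained.

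Each of 6 groups was 1 tumour: Clone E, Clone EM1, Clone EM2, Clone EM3 and Clone M, which are clonal lines derived from 4T1, and Parental 4T1, the uncloned line. All were grown in the mammary fat pad of female BALB/c hosts 9 to 11 weeks old, a strain with an intact immune system, and each tumour gave a Total and a CD45 library. No group was treated, each clone is a single line, and no second tumour of any group was sequenced, so a difference between tumours cannot be told apart from a difference between mice. Depth is given in UMIs, molecular tags of which each marks 1 captured RNA molecule. The 12 libraries held 28083101 to 122055131 UMIs. The class itself held 3621888 UMIs, from 57902 in Clone M to 1480708 in Clone EM1, with medians of 891 to 1512 UMIs per cell.

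A naive CD4 T cell has left the thymus and has not yet met its antigen. Such cells circulate through blood and lymphoid tissue with the help of the chemokine receptor CCR7 and the lymph node exit receptor S1PR1, and are kept quiescent by transcription factors such as LEF1, TCF7, KLF2 and SATB1. CD44, an adhesion receptor, rises after activation and stays high on effector and memory cells, so a low level is the usual mark of a naive cell. The co-receptors separate the lineages: CD4 marks helper and regulatory T cells, and CD8, a dimer of the products of Cd8a and Cd8b1, marks cytotoxic T cells.

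Cd44 was low in the class, as its label says, and Lef1 and Ccr7 were high, but the co-receptors did not mark the CD4 lineage alone. Levels are given as CPM, the counts of a gene scaled to the same total of UMIs for the summed cells of a class in 1 tumour, and are compared between classes or tumours but not between genes. Lef1 stood at 1029, 1120, 1166, 883, 674 and 1264 CPM in Clones E, EM1, EM2, EM3, M and the parental tumour, the order used throughout. Ccr7 stood at 2506, 3196, 3286, 2279, 1727 and 2945 CPM, and Cd44 at 224, 143, 145, 305, 225 and 181 CPM. Clone M was lowest for Lef1 and Ccr7, and Clone EM3 highest for Cd44. For Lef1 and Cd44 the 6 values did not overlap those of the cells annotated Cd44+ Cd4+ T or Foxp3+ Cd4+ T, the regulatory T cells. The median over tumours for Cd44 was 202 CPM in the class, 672 in Cd44+ Cd4+ T, 723 in Foxp3+ Cd4+ T and 395 in Lef1+ Cd8+ T cells. Cd44 UMIs were few but not absent: 12.6% to 33.9% of the cells per tumour held at least 1, against 39.6% to 61.5% in Cd44+ Cd4+ T and 18.9% to 40.3% in B cells. In granulocytes the range was 75.2% to 88.9%, and the part of free RNA from other cells in these shares was not tested. With every cell thinned to 1000 UMIs, which leaves out 1652 shallower cells of the class, the first range was 10.9% to 29.2%.

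Cd4 was lower in this class than in both other classes named for it, and Cd8a and Cd8b1 were higher. Cd4 was at 322, 348, 347, 403, 190 and 344 CPM, against medians of 1322 CPM in Cd44+ Cd4+ T and 661 CPM in Foxp3+ Cd4+ T cells. Cd8b1 was at 266, 263, 248, 327, 363 and 194 CPM, against medians of 45.0 CPM, 32.0 CPM and, in Lef1+ Cd8+ T cells, 476 CPM. Cd8a was at 186, 168, 92.0, 207, 311 and 81.9 CPM, against medians of 23.3, 8.34 and 324 CPM in the same 3 classes. Of 5 CD4 lineage genes, Cd4, Cd40lg, Trat1 and Tnfsf8 were lower than in Cd44+ Cd4+ T cells, past the fold explained with the subtype comparisons, and of 5 CD8 lineage genes Cd8a and Cd8b1 were higher. Against Foxp3+ Cd4+ T cells 0 of 2 CD4 lineage genes measured passed the fold, Cd4 included (median log2 ratio -0.95). No tumour of the class overlapped the Cd44+ Cd4+ T or Foxp3+ Cd4+ T values for any of the 3 genes.

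**Figure D1:**
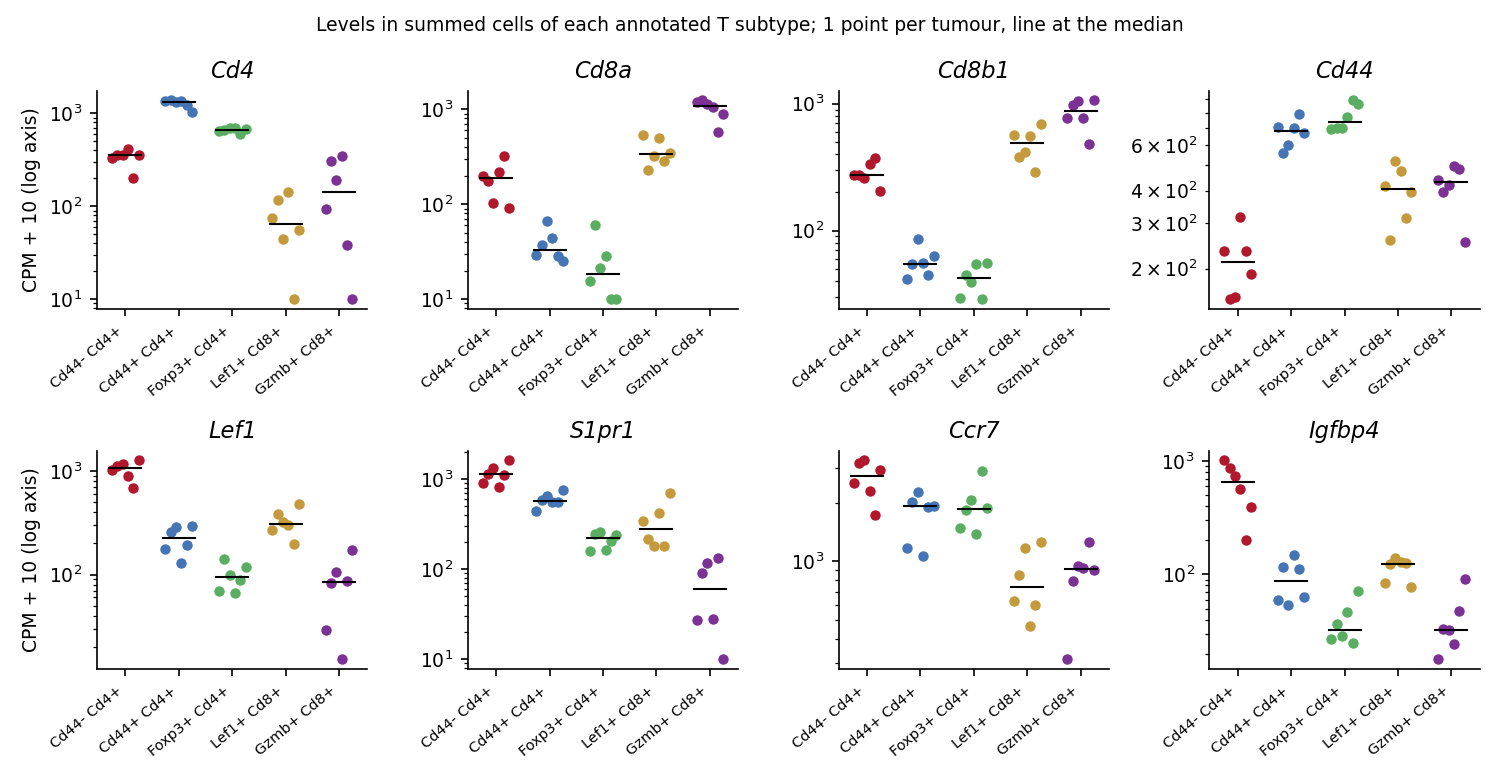
Levels of 8 genes in the summed cells of 5 annotated T subtypes, as CPM plus 10 on a log axis; each point is 1 tumour and the line is the median over tumours. The class (red) sits above the other subtypes for Lef1, S1pr1 and Igfbp4 in the median, below them for Cd44 in the median, and between the Cd4+ and Cd8+ subtypes for Cd4, Cd8a and Cd8b1.

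The co-receptor UMIs lay in different cells. Of the 3351 cells, 854 (25.5%) held a Cd4 UMI and none of Cd8a or Cd8b1, 738 (22.0%) held a Cd8a or Cd8b1 UMI and none of Cd4, 24 held both and 1735 (51.8%) held neither. A Cd8a or Cd8b1 UMI was present in 2.73% of the cells with a Cd4 UMI (exact Clopper-Pearson interval 1.76 to 4.04, 878 cells) and in 29.8% of the cells with none (28.0 to 31.7, 2473 cells). The 2.73% is near the level of cells that do not make CD8: 2.15% of B cells with no Cd4 UMI held one, and so did 3.97% of Cd44+ Cd4+ T cells with a Cd4 UMI. In Cd44+ Cd4+ T cells 57.3% held Cd4 UMIs alone and 3.63% held Cd8a or Cd8b1 UMIs alone, and in Lef1+ Cd8+ T cells these shares were 7.40% and 50.4%. A fixed depth of 1000 UMIs left 1699 cells of the class. Of these, 22.9% held Cd4 UMIs alone, 28.5% Cd8a or Cd8b1 UMIs alone and 0.353% both. The annotated name is kept below only as the name of the class, since its cells are not of the CD4 lineage alone by these measurements.

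Every tumour held both kinds of cell. Among cells with UMIs of 1 lineage alone, the CD8 side made up 48.2% in Clone E, 48.7% in Clone EM1, 43.2% in Clone EM2, 46.3% in Clone EM3, 66.7% in Clone M and 39.7% in the parental tumour. The intervals for Clone M (44.7 to 84.4, 24 cells) and Clone EM3 (30.7 to 62.6, 41 cells) overlapped all others, so no order among these 2 and the rest could be read at this depth. These are not shares of CD8 lineage cells. A cell could be marked by 2 genes on the CD8 side and by 1 on the CD4 side, and 51.8% of all members held neither. Cells with a Cd8a or Cd8b1 UMI were deeper than cells with a Cd4 UMI in every tumour, with medians of 1861 against 1444 UMIs per cell in Clone E and 1153 against 992 in the parental tumour. At 1000 UMIs per cell the CD8 side was 48.7%, 62.0%, 54.6%, 40.0%, 60.0% and 48.7% in the same order. It was higher than at full depth in Clones EM1 and EM2 and the parental tumour, lower in Clones EM3 and M, and about level in Clone E. Shallower cells are left out there, so the shares at full and fixed depth are not of the same cells. The intervals at fixed depth were 21.1 to 61.3 for Clone EM3 and 32.3 to 83.7 for Clone M.

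**Figure D2:**
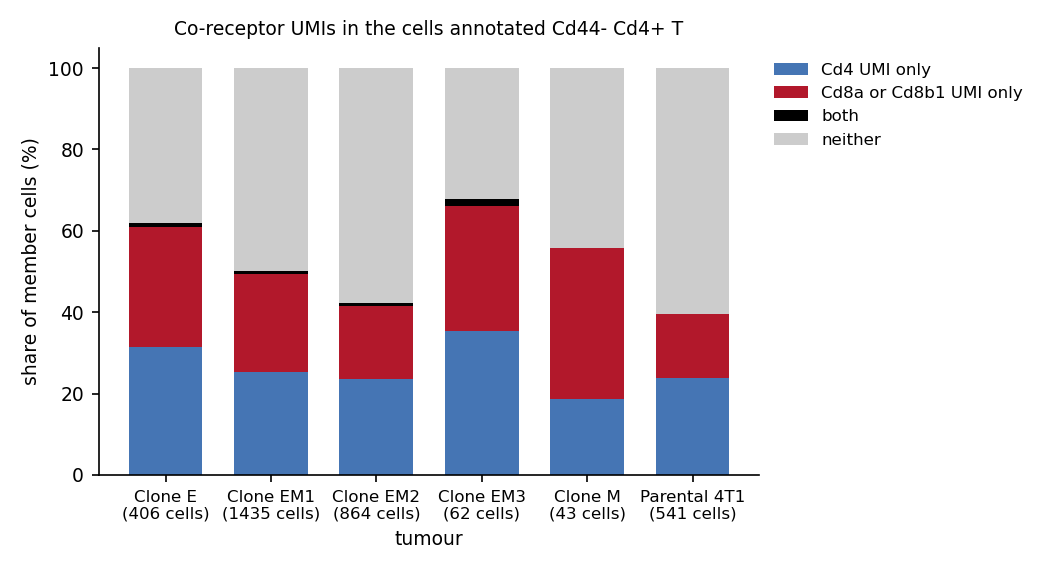
Share of the cells annotated Cd44- Cd4+ T that held UMIs of Cd4 alone, of Cd8a or Cd8b1 alone, of both or of neither, per tumour, with the number of cells under each bar. In every tumour both single-lineage groups are large and the share with both is thin; over all tumours it is 24 of 3351 cells.

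The 2 kinds of cell differed in many other genes. Cells with a Cd8a or Cd8b1 UMI were compared with cells with a Cd4 UMI by edgeR's quasi-likelihood test on summed counts in the 4 tumours with at least 20 cells on both sides (Clones E, EM1, EM2 and the parental tumour), with the tumour as a block and Cd4, Cd8a and Cd8b1 left out. This comparison was added after the co-receptor split had been seen, and the genes named from it were chosen after their values were seen. Of 5444 genes, 368 (6.76%) were higher on the CD8 side and 392 (7.20%) higher on the CD4 side at an adjusted p under 0.05. The number of calls fell to 426 without Clone EM1, to 375 without the block and to 244 by DESeq2. All 244 DESeq2 calls were among the 760.

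The genes higher on the CD8 side included Il2rb, Ccl5, Eomes and Nkg7. Il2rb, the IL-2 and IL-15 receptor chain, was at 152, 136, 252 and 131 CPM in the cells with a Cd4 UMI of Clones E, EM1, EM2 and the parental tumour, and at 978, 1188, 1252 and 1203 CPM in those with a Cd8a or Cd8b1 UMI. The groups did not overlap, and the log2 fold change was 2.79 (SE 0.12, edgeR adjusted p 2.168e-46). Ccl5, a chemokine of cytotoxic cells, was at 54.3, 39.6, 21.0 and 7.69 CPM on the CD4 side and rose by 3.95 on the log2 scale (SE 0.20, edgeR adjusted p 1.648e-39). Eomes, a transcription factor of CD8 memory, rose by 4.64 (SE 0.42), Nkg7, a protein of cytotoxic granules, by 4.31 (SE 0.30), the chemokine receptor Cxcr3 by 4.29 (SE 0.47), the inhibitory receptor Klrc1 by 4.46 (SE 0.45) and the transcription factor Myb by 3.50 (SE 0.18). Ly6c2, a surface antigen of memory-type CD8 cells, rose by 3.14 (SE 0.26), Cxcr5, a B cell follicle homing receptor, by 2.82 (SE 0.40), and Pdcd1, the PD-1 checkpoint receptor, by 1.81 (SE 0.29). Samd3 had no UMI on the CD4 side in any of the 6 tumours and 18.9 to 83.1 CPM on the CD8 side. Each of these genes was higher on the CD8 side in all 4 tumours tested.

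The genes higher on the CD4 side included Trib2, Igfbp4, St8sia6 and Tnfrsf4. Trib2, a pseudokinase, was at 1527, 1419, 1590 and 1000 CPM in cells with a Cd4 UMI and at 163, 188, 267 and 218 CPM in cells with a Cd8a or Cd8b1 UMI, a log2 fold change of -2.83 (SE 0.11, edgeR adjusted p 2.259e-51). Igfbp4, an insulin-like growth factor binding protein, was at 1788, 1589, 1092 and 530 CPM against 348, 298, 300 and 170 CPM (log2 fold change -2.25, SE 0.11, edgeR adjusted p 6.485e-43). St8sia6, a sialyltransferase, had a log2 fold change of -4.78 (SE 0.34), Tnfrsf4, the costimulatory receptor OX40, of -2.99 (SE 0.35), the RNA-binding protein gene Khdrbs3 of -1.84 (SE 0.18), Tox of -1.65 (SE 0.24) and the IL-7 receptor gene Il7r of -1.06 (SE 0.16). These genes were lower on the CD8 side in all 4 tumours tested.

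Naive factors differed as well, Igfbp4 among them. Of 14 naive and resting T cell factors tested, 9 were higher on the CD4 side and 1 on the CD8 side, with a median log2 fold change of -0.43 against 0.00 over all genes tested. Lef1 differed by -0.76 (SE 0.09), S1pr1 by -0.77 (SE 0.09), Klf2 by -0.60 (SE 0.07), Satb1 by -0.44 (SE 0.06) and Tcf7 by -0.44 (SE 0.11), all past the edgeR threshold. Ccr7 differed by 0.07 (SE 0.06, edgeR adjusted p 0.598) and Cd44 by -0.18 (SE 0.18, edgeR adjusted p 0.610), neither past it. Lef1 was at 754, 786, 818 and 1070 CPM in the cells with a Cd8a or Cd8b1 UMI of this class, and at 261, 527, 342 and 621 CPM in those of the Lef1+ Cd8+ T class of the same tumours. Ccl5 went the other way, at 670, 463, 723 and 265 CPM in the class and 6616, 4892, 2943 and 4966 CPM in Lef1+ Cd8+ T cells, as did Pdcd1, at 97.0, 74.9, 228 and 114 CPM against 1418, 1128, 1004 and 1385 CPM. For each of these 3 genes the CD8-side cells of the class did not overlap those of the Lef1+ Cd8+ T class in these 4 tumours. The parental value of the latter rests on 11 cells and that of Clone EM2 on 24. Clones EM3 and M were left out, with 19 and 16 CD8-side cells in the class. In these cells Lef1 was at 637 and 246 CPM and Pdcd1 at 139 and 598 CPM. The Lef1 value of Clone M lay below all 4 values given for the Lef1+ Cd8+ T class.

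Genes of other cell types moved with the split as well. Of 12 myeloid genes tested, 7 were higher on the CD4 side and 0 on the CD8 side, with a median log2 fold change of -0.47. The same held for 3 of 3 dendritic and 3 of 5 granulocyte genes tested, with 0 on the CD8 side. The 1 natural killer list gene tested, Gzmb, was higher on the CD8 side. Apoe differed by -0.49 (SE 0.07) and Lyz2 by -0.49 (SE 0.12). H2-Aa, a dendritic list gene of the antigen-presentation class II complex, differed by -0.45 (SE 0.09). Their part in the gene differences was not tested.

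**Figure D3:**
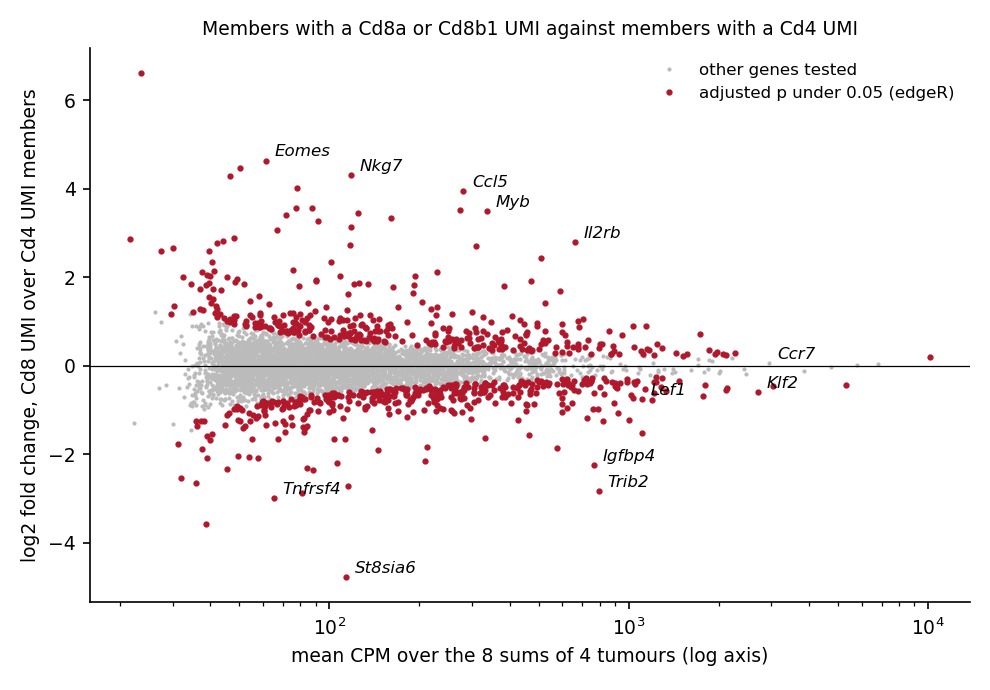
Log2 fold change of each of 5444 genes between members with a Cd8a or Cd8b1 UMI and members with a Cd4 UMI (vertical) against the mean CPM over the 8 sums of 4 tumours (horizontal, log axis); red points passed an adjusted p under 0.05 by edgeR. Il2rb, Ccl5, Nkg7, Eomes and Myb lie above 2, Trib2, Igfbp4, Tnfrsf4 and St8sia6 below -2, and Ccr7 lies near 0.

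The class was then set against the other T subtypes within each tumour. The authors named the subtypes from these same cells, so these differences are descriptions and have no test. A gene was counted as past the fold when log2 of the ratio of (CPM + 10) had the same sign in every tumour and a median of at least 1 or at most -1. Against Cd44+ Cd4+ T cells 141 of 5180 genes (2.72%) were higher and 270 (5.21%) lower. Against Foxp3+ Cd4+ T cells 363 of 5250 (6.91%) were higher and 419 (7.98%) lower, and against Lef1+ Cd8+ T cells 91 of 5185 (1.76%) were higher and 150 (2.89%) lower.

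Naive and resting factors were higher in the class or did not pass the fold, and none was lower. Of 13 measured, 5 were higher and 0 lower against Cd44+ Cd4+ T (median log2 ratio 0.37, against 0.09 over all genes), 9 and 0 against Foxp3+ Cd4+ T (1.63 against 0.16), and 4 and 0 against Lef1+ Cd8+ T cells (0.57 against 0.04). Satb1, a chromatin organiser, was at 2915, 2955, 3232, 2224, 1140 and 3536 CPM, against medians of 745, 331 and 1030 CPM in these 3 subtypes. Clone M was far below the other 5 for Satb1. Igfbp4 was at 1001, 855, 734, 556, 190 and 382 CPM, against medians of 77.6, 22.7 and 114 CPM. Klf2, which drives S1pr1, had a median of 2790 CPM against 1619, 820 and 1276 CPM.

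Among homing genes, S1pr1 was higher than in all 3 subtypes and several chemokine receptor genes were lower. S1pr1 was at a median of 1124 CPM, against 567 CPM in Cd44+ Cd4+ T, 213 CPM in Foxp3+ Cd4+ T and 268 CPM in Lef1+ Cd8+ T cells. Against Cd44+ Cd4+ T cells the 6 lower genes of 15 were the integrin genes Itgal and Itgae and the tissue chemokine receptor genes Cxcr4, Cxcr6, Ccr4 and Ccr8. Against Foxp3+ Cd4+ T cells S1pr1 alone was higher of 16, and 9 were lower. Against Lef1+ Cd8+ T cells Ccr7 and S1pr1 were among the higher genes of 13, and 6 were lower. Ccr8, a receptor of tumour regulatory T cells, was at 4.93 CPM in the median, against 370 CPM in Cd44+ Cd4+ T and 596 CPM in Foxp3+ Cd4+ T cells.

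Of 14 survival cytokine receptors and their regulators, 4 were higher and 1 lower against Cd44+ Cd4+ T, 6 and 1 against Foxp3+ Cd4+ T and 5 and 1 against Lef1+ Cd8+ T cells. Il4ra (median 1036 CPM against 273, 229 and 400), Il21r (1373 against 435, 243 and 620), Il6ra and Socs3, the latter an inhibitor of cytokine signalling, were higher than in all 3 subtypes. Il2ra, the inducible IL-2 receptor chain, was at 20.3 to 42.8 CPM, against medians of 491 CPM in Cd44+ Cd4+ T and 2893 CPM in Foxp3+ Cd4+ T cells. Bcl2, the survival factor, was past the fold against Foxp3+ Cd4+ T cells (median log2 ratio 3.49, SD 0.88 over 6 tumours).

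Activation, checkpoint and helper genes were lower or did not pass the fold, and none was higher. Of 20 activation and memory genes, 0 were higher and 11 lower against Cd44+ Cd4+ T cells (median log2 ratio -1.55), with 0 and 12 of 19 against Foxp3+ Cd4+ T and 0 and 4 of 18 against Lef1+ Cd8+ T cells. Tnfrsf9, the costimulatory receptor 4-1BB, was at 79.6 CPM in the median, against 1425 CPM in Cd44+ Cd4+ T and 5572 CPM in Foxp3+ Cd4+ T cells. Of checkpoint genes, 4 of 7, 8 of 8 and 1 of 5 were lower in the 3 comparisons and none higher. Pdcd1 stood at 78.2, 72.3, 136, 87.2, 449 and 57.7 CPM, against medians of 1272, 1447 and 974 CPM, with Clone M above the other 5. Of helper regulators and cytokines, 7 of 10, 6 of 7 and 3 of 6 were lower and none higher. Il5 and Il13, type 2 cytokines, were at 0 CPM in the median and at 284 and 328 CPM in Cd44+ Cd4+ T cells, and Foxp3 was at 29.4 CPM against 2132 CPM in Foxp3+ Cd4+ T cells.

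Most genes of the T cell receptor complex did not pass the fold. Of 14 measured, the kinase gene Txk was among those higher against Cd44+ Cd4+ T cells, Txk and the phosphatase gene Ptpn22 were among those higher against Foxp3+ Cd4+ T, and none was higher against Lef1+ Cd8+ T cells; none was lower in any of the 3. Txk was at 1048, 842, 771, 643, 311 and 529 CPM, against medians of 86.4, 71.2 and 370 CPM. Txk (log2 fold change 0.39, SE 0.09) and Ptpn22 (1.41, SE 0.12) were also higher on the CD8 side in the lineage comparison. Division genes gave no call in any of the 3 comparisons, 6 of 14 being measured, and Mki67 was at 3.13 to 17.3 CPM in the class. Glycolysis genes were lower for 2 of 10, 4 of 10 and 0 of 9, among them the hexokinase gene Hk2 and Hif1a in the first 2. Of type I interferon response genes, 1 of 9, 3 of 10 and 2 of 11 were lower, Ly6a in each, and none higher. Of interferon-gamma induced genes, 2 of 14 were higher against Cd44+ Cd4+ T, 1 of 15 higher and 2 lower against Foxp3+ Cd4+ T and 1 of 14 higher against Lef1+ Cd8+ T cells. Stress and early response genes were higher for 0 of 16, 5 of 16 and 0 of 16, and lower for 1, 2 and 1.

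The genes farthest from the other subtypes included several outside those lists. Khdrbs3 had a median log2 ratio of 4.01 (SD 0.56), 3.95 (SD 0.53) and 4.05 (SD 0.47) against Cd44+ Cd4+ T, Foxp3+ Cd4+ T and Lef1+ Cd8+ T cells, with 217 CPM in the class and at most 5.09 CPM in the medians of the others. Rflnb, a filamin-binding protein gene, had 3.26 (SD 0.67), 4.02 (SD 0.50) and 2.78 (SD 0.56), and Pde5a, a phosphodiesterase gene, 2.69 (SD 0.57), 3.36 (SD 0.43) and 2.49 (SD 0.93). Against Cd44+ Cd4+ T cells Myb (2.87, SD 0.65), Actn1 (2.54, SD 0.46), Pde2a (2.43, SD 0.26) and Sidt1 (2.40, SD 0.94) followed. Of these, Myb and Pde2a are also genes of the CD8 side in the comparison above, and Cd8b1 (2.46, SD 0.59) is among the 10 highest. Among the lowest were Penk, the enkephalin precursor gene (-6.40, SD 0.95), Tnfsf11 (-4.96, SD 0.78), Il1rl1, the IL-33 receptor gene (-4.93, SD 0.67), and Ccl1 (-4.59, SD 1.36). Bhlhe40, a transcription factor of cytokine-producing T cells, was at -4.16 (SD 1.21).

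Against Foxp3+ Cd4+ T cells Tdrp (4.42, SD 0.58), Atp1b1 (3.82, SD 0.77), Lef1 (3.51, SD 0.39) and Pde3b (3.50, SD 0.47) were among the highest. Il1rl1 (-7.09, SD 0.51), Il2ra (-6.21, SD 0.36), Klrg1 (-6.06, SD 0.59) and Ikzf2 (-4.85, SD 0.37) were among the lowest. Against Lef1+ Cd8+ T cells Trib2 (3.69, SD 0.94), St8sia6 (2.52, SD 0.69), Cd4 (2.41, SD 1.04) and Tmem64 (2.03, SD 0.78) were higher, and the first 2 and Tmem64 are genes of the CD4 side above. Gzmb, a cytotoxic protease gene (-3.54, SD 1.02), Fgl2 (-3.51, SD 0.68), Cxcr6 (-3.31, SD 0.85) and Fasl (-2.97, SD 1.22) were lower.

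Markers of myeloid cells covered overlapping ranges in the T subtypes. The summed level of 13 myeloid genes ranged over tumours from 2694 to 7432 CPM in the class, 2550 to 6526 CPM in Cd44+ Cd4+ T and 2496 to 7514 CPM in Lef1+ Cd8+ T cells. The 8 granulocyte genes summed to 1718 to 3086 CPM and the 10 B cell genes to 76.3 to 136 CPM, with Cr2 at 0. The dendritic list, 11 genes with Flt3 at 0, summed to 725 CPM in Clone M and to 1571 to 4001 CPM in the other 5 tumours; Clone M was lowest in the 4 other T subtypes as well, at 656, 870, 610 and 882 CPM. The 8 natural killer and innate lymphoid genes summed to 44.7 to 143 CPM, with Ncr1 and Klra8 at 0, below the 407 to 1012 CPM of Cd44+ Cd4+ T, the 2558 to 3113 CPM of Foxp3+ Cd4+ T and the 417 to 1257 CPM of Lef1+ Cd8+ T cells. That list holds Gzmb, for which a T subtype is named, so its sum does not measure RNA of natural killer cells alone. Gzmb by itself was at 226 to 577 CPM in Lef1+ Cd8+ T cells and 1.86 to 65.4 CPM in the class. In the class the 9 tumour and stroma genes summed to 120 to 198 CPM. The authors' automatic reference labels called 93.3% to 94.1% of the class T cells in Clones E, EM1 and EM2, 88.9% in the parental tumour, 82.3% in Clone EM3 and 72.1% in Clone M. The median mitochondrial percent of UMIs per cell was higher in the class than in Cd44+ Cd4+ T, Foxp3+ Cd4+ T and Lef1+ Cd8+ T cells in each tumour but Clone M (0.709 against 0.397, 0.206 and 0.402 in Clone E), where Cd44+ Cd4+ T cells were higher (0.355 against 0.345), and its part in the subtype differences was not tested.

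The size of the class differed strongly between tumours. It made up 3.79% of the CD45-library cells in Clone E (406 cells, exact Clopper-Pearson 95% interval 3.44 to 4.17), 15.3% in Clone EM1 (1435 cells, 14.6 to 16.1), 9.59% in Clone EM2 (864 cells, 8.99 to 10.2), 0.570% in Clone EM3 (62 cells, 0.438 to 0.731), 0.572% in Clone M (43 cells, 0.414 to 0.770) and 8.03% in the parental tumour (541 cells, 7.39 to 8.70). Only Clones EM3 and M had overlapping intervals. Clone EM2 and the parental tumour were not apart under 2 other settings: with granulocytes out of the whole their intervals overlapped (10.2 to 11.6 and 9.83 to 11.5), and among cells with at least 650 genes they overlapped with the order turned (7.78% and 8.30%). Of the T cells it was 22.5%, 47.4%, 47.3%, 3.61%, 6.27% and 67.5%, so the parental tumour led by this whole. Of the cells annotated as CD4 T it was 42.9%, 69.2%, 62.4%, 7.33%, 8.29% and 72.5%. The intervals cover counting error only and say nothing of the spread between mice.

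The shares rose and fell with those of B cells. B cells were 2.55%, 7.68%, 5.53%, 0.856%, 0.572% and 3.31% of the CD45-library cells. Over the 6 tumours Pearson's r was 0.983 (exact two-sided permutation p 0.002778, Benjamini-Hochberg adjusted 0.0250 over 9 relations). Spearman's rho was 0.943 (exact permutation p 0.0167, adjusted 0.150), which is not past the threshold after adjustment. With Clones EM1 and EM3 left out, those farthest from the median share, r was 0.948. Without Clone EM1 alone, r was 0.959 (exact permutation p 0.0167 before and 0.150 after adjustment), and with 5 tumours 1 relation alone cannot pass the threshold after adjustment over 9. The 8 other relations, to the other T subtypes, dendritic cells, granulocytes, macrophages and natural killer cells, had exact permutation p of 0.0778 or more for r and 0.0583 or more for rho before adjustment. The shares of a library add up to a whole, and some tumours may have been run together, which the labels do not give: the libraries of Clones E and EM3 shared 15.05% to 16.7% of the droplet barcodes of the smaller library and those of Clones EM1 and EM2 12.2% to 14.0%, against 0.686% to 1.92% for the other pairs of tumours. Within both of these pairs the tumour with the larger share of the class also had the larger share of B cells, Clone E over EM3 and EM1 over EM2. Against the resting B cells annotated Cd44-MHCIIhi, the class held 2.12, 2.75, 1.96, 1.68, 2.26 and 2.67 cells per B cell, and against all B cells 1.49, 2.00, 1.74, 0.667, 1.00 and 2.43.

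**Figure D4:**
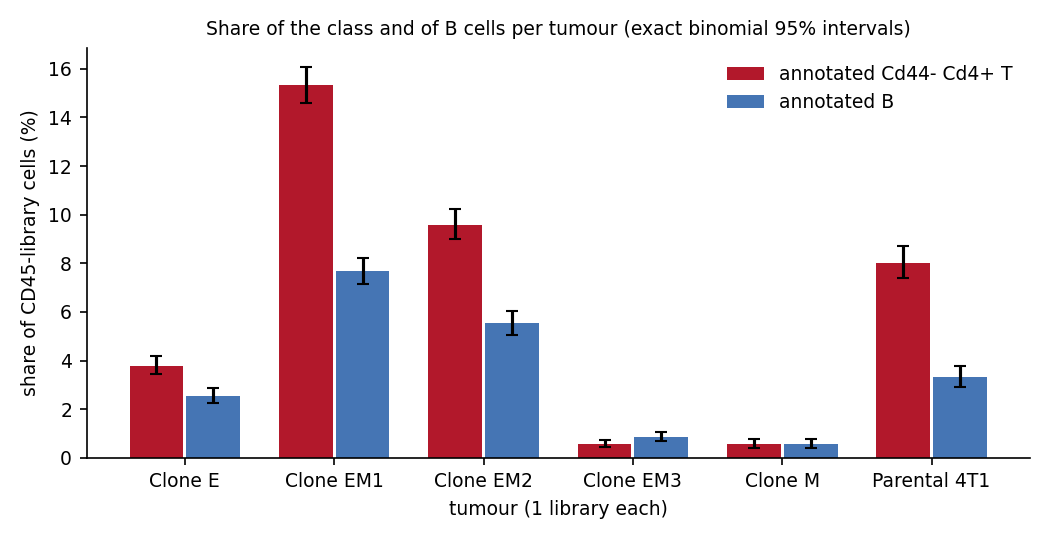
Share of CD45-library cells annotated Cd44- Cd4+ T (red) and B (blue) in each tumour, with exact binomial 95% intervals that cover counting error only. The class spans 0.570% in Clone EM3 to 15.3% in Clone EM1, and the B cell bars follow the same order for Clones EM1, EM2, the parental tumour and Clone E.

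Between tumours few genes of the class passed the fold, most of them in Clone M. Each tumour was set against the median CPM of the other 5, and a gene was counted when its log2 ratio of (CPM + 10) was at least 1 or at most -1 and its exact Poisson interval overlapped that of no other tumour. In Clone E 1 of 5098 genes was higher (0.0196%) and 0 lower, in Clone EM1 2 of 5071 higher (0.0394%) and 1 lower (0.0197%), and in Clone EM2 0 of 5067 in both directions. In Clone EM3 3 of 4827 were higher (0.0622%) and 1 lower (0.0207%), and in the parental tumour 2 of 5087 higher (0.0393%) and 8 lower (0.157%). In Clone M 22 of 4789 were higher (0.459%) and 23 lower (0.480%). Other counts resulted with 1 tumour left out: 15 for Clone E and 103 for Clone M without Clone EM3, 16 for Clone EM1 and 39 for Clone EM3 without Clone M, 17 for the parental tumour without Clone EM2 or EM3, and 3 for Clone EM2 without the parental tumour. The small classes of Clones M and EM3 limit what can be seen there, where 3 UMIs correspond to 51.8 and 32.7 CPM. For Basp1 in Clone M and Ighg1 in Clone EM3, both with no UMI, the exact Poisson upper bound was 63.7 and 40.2 CPM. A call in any other tumour also had to clear the wide intervals of these small classes. Low counts elsewhere therefore do not show that those tumours are alike.

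The highest ratios of Clone M were in Ifng, Bhlhe40, Ccl5, Ifitm1 and Fasl. Ccl5, a chemokine, was at 432, 356, 312, 774, 3368 and 106 CPM, and in Clone M its UMIs lay in 22 of 43 cells. Bhlhe40 was at 100, 75.6, 94.5, 294, 967 and 80.1 CPM, in 18 cells of Clone M. For both, Clone M was above all other tumours and Clone EM3 came next. The log2 ratios for Clone M were 3.21 for Ccl5 and 3.22 for Bhlhe40, while the same ratios in the 4 other T subtypes ran from -0.45 to 0.71 and from -0.23 to 0.73. Fasl, the death ligand gene, was at 207 CPM against 19.6 to 36.5 CPM elsewhere, in 10 cells. Ifitm1, an interferon-inducible gene, was at 518 CPM against 40.7 to 128 CPM, with 12 of its 30 UMIs in 1 cell. Ifng, the cytokine interferon gamma, had 17 of its 18 UMIs in Clone M in a single cell, so its level of 311 CPM describes that cell.

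Other measures of Clone M stand beside these values. The CD8 side was 66.7% of its single-lineage cells, with an interval that overlapped all others. At 1000 UMIs per cell it was 60.0% (interval 32.3 to 83.7), from 9 cells with Cd8a or Cd8b1 UMIs alone and 6 with Cd4 UMIs alone. That interval overlapped those of all other tumours too, so Clone M could not be placed in order. Ccl5 and Pdcd1 are genes of the CD8 side. Its summed myeloid genes were the lowest of the 6 tumours, at 2694 CPM, and Clone M was lowest in the 4 other T subtypes as well (2550, 3058, 2496 and 2447 CPM). The authors' reference labels called 9 of its 43 cells gamma-delta T, NKT, innate lymphoid or natural killer cells, against 15 of 406, 85 of 1435, 43 of 864, 5 of 62 and 24 of 541 in Clones E, EM1, EM2, EM3 and the parental tumour. The median mitochondrial percent of UMIs per cell was 0.345 in Clone M and 0.659 to 1.19 in the class of the other 5 tumours. Of its cells 6.98% were called myeloid by the authors' reference labels, against 0.767% to 2.22% in Clones E, EM1 and EM2, 6.65% in the parental tumour and 9.68% in Clone EM3. The part of these in the gene differences was not tested. The 3 lowest genes of Clone M were Basp1 (178, 83.7, 115, 207, 0 and 121 CPM), Cbarp (169, 155, 169, 218, 0 and 130 CPM) and Ms4a6d (98.5, 84.4, 136, 142, 0 and 143 CPM) and had no UMI in its 43 cells. Ms4a6d is a gene of macrophages. Of the 3 dendritic-list genes measured, H2-Aa and Cd74 were lower there, and the summed list was low in Clone M in each T subtype. In the 4 other T subtypes the log2 ratios of Clone M for Ms4a6d ran from -1.76 to -0.22 and for Cbarp from -1.24 to 0.44.

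Set against Clone E alone, Clone M had 98 of 4785 genes higher (2.05%) and 109 lower (2.28%). The higher genes included 4 of 10 homing genes (Itga4, Cxcr3, Cxcr4 and Cd69), 5 of 16 activation genes (Cd28, Egr1, S100a4, Ahnak and Itgb1) and 3 of 4 helper genes (Gata3, Rora and Ifng). No gene of these 3 lists was lower. For Ifng, 17 of the 18 UMIs of Clone M lay in 1 cell. Of 15 stress and early response genes, 5 were higher (Fosb, Jun, Dusp2, Hspa1b and Hsp90aa1) and 0 lower. The Hspa1b UMIs of Clone M lay in 4 cells, with 12 of 25 in 1 cell. Of the genes of the first 3 lists, Cxcr3, Cxcr4, Cd69, Egr1, Ahnak and Itgb1 were also higher on the CD8 side in the lineage comparison. So were Dusp2 and Fosb of the stress genes. Of 13 naive factors, Klf3 was higher and Tcf7, Satb1 and Igfbp4 were lower, and these 4 were higher on the CD4 side. Of other cell types' genes, 3 of 3 dendritic genes (H2-Aa, H2-Ab1 and Cd74) and 3 of 11 myeloid genes (Apoe, Spp1 and Arg1) were lower. The part of the CD8 side, of the stress genes and of the genes of other cell types in the differences was not tested. Tcf7 stood at 242 CPM in Clone M and 508 CPM in Clone E, and Satb1 at 1140 and 2915 CPM. Epas1, a hypoxia-inducible factor gene, was at 225 and 15.6 CPM, and its log2 ratio of 3.19 in the class compared with 1.14 to 2.58 in the other T subtypes.

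Clone E passed the fold in Bcl2 alone. Bcl2 was at 586, 432, 227, 327, 225 and 214 CPM, with UMIs in 200 of 406 cells of Clone E, and its interval (529 to 649 CPM) lay above those of all other tumours. The log2 ratio of Clone E was 1.33 in the class and -0.58 to 0.58 in the other T subtypes. The 3 genes with the lowest ratios in the parental tumour were also higher on the CD8 side above. Nkg7 was at 20.5 CPM against 116 to 207 CPM in the clones, Klrc1 at 14.9 against 51.5 to 138 CPM, and Ccl5 at 106 against 312 to 3368 CPM. Its log2 ratio for Nkg7 was -2.12 in the class and -2.06 to -0.32 in the 3 other subtypes with enough cells. The CD8 side of the parental tumour was 39.7% of its single-lineage cells, and 48.7% at 1000 UMIs per cell (interval 39.4 to 58.1). Clone EM3 was at 40.0% at that depth (interval 21.1 to 61.3), so no order between them could be read there. The part of the CD8 side in these values was not tested. Ifngr2, an interferon gamma receptor chain, was at 460 CPM against 69.1 to 344 CPM (log2 ratio 1.35, and 0.32 to 1.80 in the other subtypes).

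Several other genes differed in the same direction in the other T subtypes that had enough cells. Ighg1, an immunoglobulin heavy chain gene, was at 98.5, 372, 33.1, 0, 0 and 1.86 CPM. Its log2 ratio in Clone EM1 was 5.01 in the class and 3.72 to 9.80 in the other T subtypes, and 107 plasma cells were annotated there, against 0 to 35 in the other tumours. The light chain gene Igkc was at 423 CPM in Clone EM1 and 0 to 92.3 CPM elsewhere. Spp1, a secreted protein of macrophages, was at 622 CPM in the parental tumour against 60.8 to 295 CPM (log2 ratio 1.83, and 0.65 to 1.18 in the other subtypes). Thbs1 was at 742 CPM in Clone EM3 (log2 ratio 1.41, and 1.37 to 2.20). The heat shock genes Hspa1a and Hspa1b were at 1178 and 1777 CPM in Clone EM3, in 8 and 10 of its 62 cells. A single cell held 33 of the 108 Hspa1a UMIs there, and a single cell 66 of the 163 Hspa1b UMIs. The next highest levels were 332 CPM for Hspa1a in Clone EM1 and 432 CPM for Hspa1b in Clone M. The log2 ratios of Clone EM3 were 4.13 and 4.53 in the class and 1.49 to 3.83 and 0.97 to 3.90 in the other subtypes.

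The pairs of tumours that shared droplet barcodes were compared directly. Clone EM3 over Clone E had 49 of 4801 genes higher (1.02%) and 33 lower (0.687%), with 7 of 16 stress and early response genes higher (Fos, Fosb, Jun, Dusp1, Hspa1a, Hspa1b and Ddit4) and none lower. Phlda1, an activation-induced gene, was at 142 CPM in Clone EM3 and 20.3 CPM in Clone E, a log2 ratio of 2.32 against 0.24 to 0.57 in the other T subtypes. Of 8 type I interferon response genes, Ifi27l2a was among those lower, and 0 were higher. Clone EM2 over Clone EM1, a comparison added after the shared barcodes were found, had 6 of 5068 genes higher (0.118%) and 11 lower (0.217%). The lower included Ighg1, Igkc, Jchain, Hspa1a and Hspa1b. Tuba1b was at 158 and 60.8 CPM, and its log2 ratio of 1.25 stood beside 0.58 to 1.13 in the other subtypes.

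**Figure D5:**
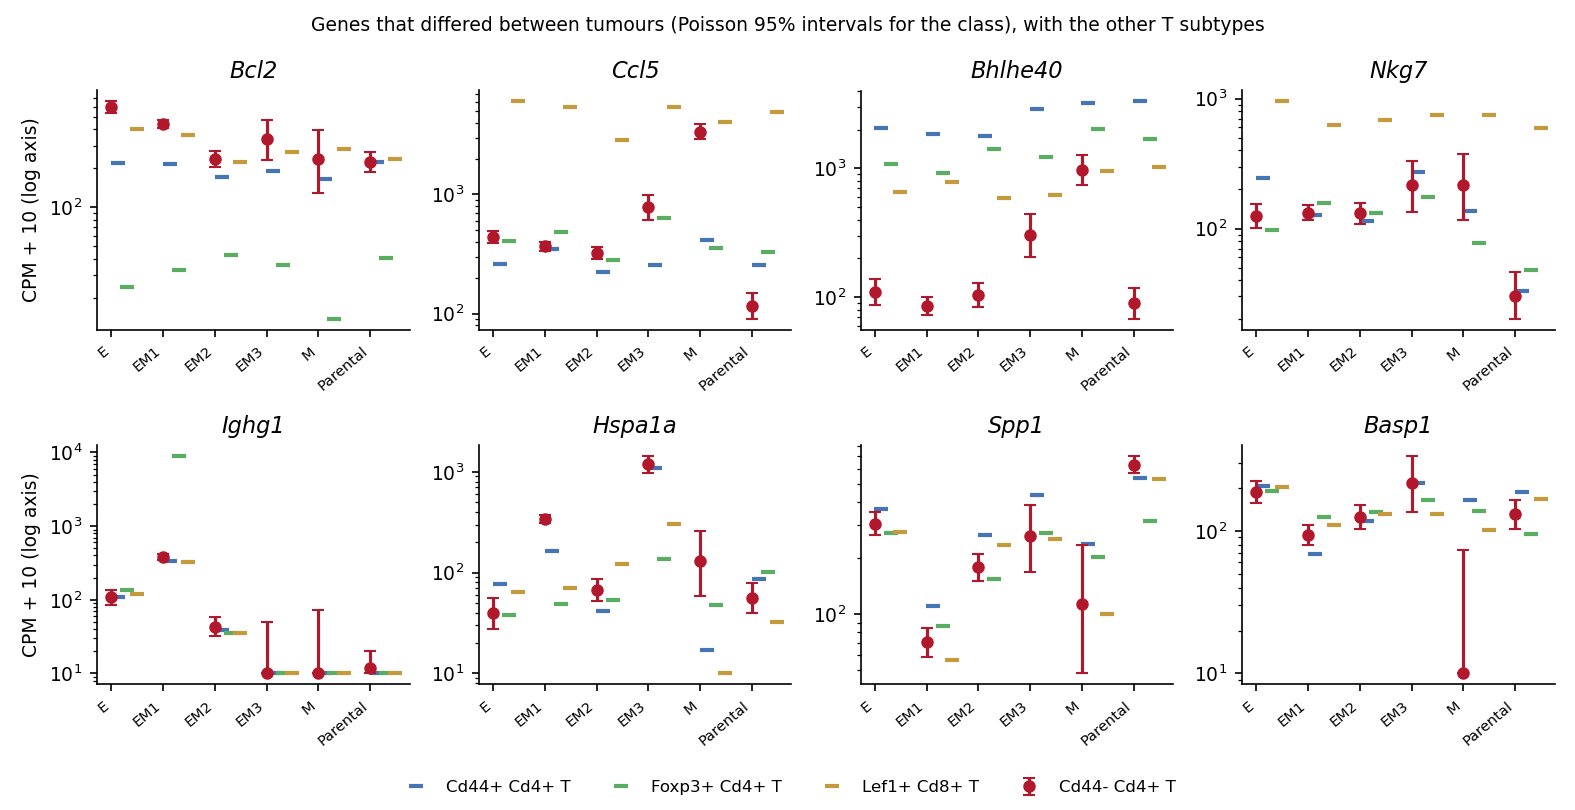
Levels of 8 genes in the class (red, exact Poisson 95% intervals for counting error) and in 3 other T subtypes (dashes), as CPM plus 10 on a log axis, by tumour. Ccl5 and Bhlhe40 of the class are highest in Clone M (3368 and 967 CPM), Bcl2 in Clone E (586 CPM), and Ighg1 is highest in Clone EM1 in all 4 subtypes.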

How the data were processed

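Raw UMI counts per gene and cell, and the authors' cell annotation, were taken as deposited, 1 count table and 1 annotation table for each of 12 libraries. The cells had been filtered by the authors before deposit, with limits not given in the sources used here. The mitochondrial percent of UMIs per cell is the authors' deposited value and was used only to describe the cells. Per the submitters' processing notes, Cell Ranger and the mm10 build were used. The labels' protocols name both a fixed-RNA kit and 3′ reagents, which leaves the chemistry open here, and levels of different genes are not compared.

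Doublets were scored with a simulation-based score like Scrublet's, written for this work, which marked 1817 cells (1.57%). UMIs were summed per class and tumour and scaled to CPM. Genes needed at least 50 CPM and 10 UMIs in a group compared. Ratios used a pseudocount of 10 CPM. Intervals are exact Poisson (levels) and exact Clopper-Pearson (shares), at 95%, for counting error only. With 1 tumour a group there is no test between groups. Relations over 6 tumours used exact two-sided permutation tests over all 720 orderings of the tumours. The lineage comparison used edgeR 4.0.16 in R 4.3.3, with DESeq2 1.42.0 as an alternative; in simulated counts of 5376 genes with 200 changed it recovered 78% of genes changed by log2 1 and 93% of those changed by log2 2, with 6 false calls. Arithmetic used Python 3.11.15, NumPy 2.4.6, SciPy 1.17.1 and pandas 2.3.3.

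Named genes are Cd4, Lef1, Ccr7 and Cd44; the 10 highest and 10 lowest past the fold against each subtype; the 5 highest and 3 lowest of each tumour and 5 and 5 of each pair; and up to 4 of each of 21 lists (254 genes, 249 in the tables). The class and the lists were chosen with earlier results of these data known. The text gives a part of the genes so named. Some genes of the lists, 1 of the lists and a count of cells by markers are not reported here. Alternatives were the pseudocount, the filters, TMM or RLE factors, a mean over cells, doublets kept, cells with no UMI of other lineages, fixed depth and leaving out each tumour.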

Additional observations from a re-analysis of the deposited data

How the results depend on the processing

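Shares of the class moved with the whole and with a minimum of genes per cell. With granulocytes left out of the whole they were 4.99%, 18.01%, 10.9%, 0.784%, 1.15% and 10.7% in the usual order of tumours. Among cells with at least 650 genes they were 4.29%, 15.1%, 7.78%, 0.577%, 0.763% and 8.30%, so that the parental tumour was above Clone EM2. The relation to B cells had r 0.959 and an adjusted p of 0.150 (exact permutation) without the farthest tumour; with 5 tumours 1 relation alone cannot pass after adjustment over 9, so this does not bear on its stability. Relations past no threshold changed sign: Gzmb+ Cd8+ T to -0.111, Cd44+ Cd4+ T to -0.603 and macrophages to 0.729 without the farthest tumour, and Cd44+ Cd4+ T to -0.412 and dendritic cells to -0.134 with granulocytes left out.

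The subtype comparisons gave 405 to 434, 775 to 845 and 227 to 286 genes with 1 tumour left out, and 227, 472 and 139 with a pseudocount of 50 CPM. Of the class, 265 cells had no UMI of Cd8a, Cd8b1, Foxp3, Lyz2, S100a8, S100a9, Cd79a or C1qa. Subtype comparisons in them used only Clones EM1, EM2 and the parental tumour, with 135, 94 and 20 such cells. The other tumours had fewer than the 20 cells needed. There the comparison with Lef1+ Cd8+ T gave 678 genes. The same sign was needed in fewer tumours, a looser rule, so this number is not comparable with that of the main setting. Cd8b1 against Cd44+ Cd4+ T turned to -2.67 because those cells were chosen without it. Tumours other than Clones EM1 and EM2 held 1 to 20 such cells, so the comparisons of each tumour with the others were not run in them. Clone EM2 over Clone EM1 was run in such cells. There 5 named genes left the interval of the main setting and 5 stayed within it. Between tumours, leaving out 1 other tumour gave 2 to 15 genes for Clone E, 4 to 16 for Clone EM1, 0 to 3 for Clone EM2, 4 to 39 for Clone EM3, 45 to 103 for Clone M and 11 to 17 for the parental tumour; with fewer tumours, fewer intervals need to be cleared. A mean over cells gave 2, 5 and 13 genes for Clones E, EM1 and EM3 and 147 for Clone EM3 over Clone E, and TMM factors gave 1 for Clone EM2. Clone EM2 over Clone EM1 gave 29 genes with a pseudocount of 1 CPM, 4 with 50 CPM and 38 from at least 10 CPM. The cause of these shifts was not tested.

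The CD8 side at 1000 UMIs per cell, without the shallower cells, was 48.7%, 62.0%, 54.6%, 40.0%, 60.0% and 48.7% in the usual order. The lineage comparison gave 426 to 725 calls with 1 tumour left out, 375 without the tumour block and 244 by DESeq2. Of single genes and their UMI shares over the alternatives run, 1866 values were counted as the same, 219 as moved, 148 lost the call and 1 reversed. For subtype ratios the same means a shift under 1 SD over tumours. For tumour ratios and UMI shares it means a value within the interval of the main setting. For the lineage comparison it means an unchanged direction and call. Moved values left that band or interval without a turn of sign. No paired analysis was possible because each group is 1 tumour, as far as tumours are compared; the subtype and lineage comparisons are within tumours, the first as 1 ratio per tumour and the second with the tumour as a block.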
